A study of Rattus norvegicus with 5 samples.

Results

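Retinal cells of rats 8 weeks into diabetes were compared with those of rats 4 weeks into diabetes, cell class by cell class. Of the 5 single-cell RNA sequencing samples in the series, all from retina of Sprague-Dawley rats (label SD), 2 enter here, the library labelled 8 weeks and the library labelled 4 weeks. Both come from rats made diabetic with streptozotocin, which destroys the insulin-producing beta cells, and kept on a high-fat, high-sugar diet, so that toxin and diet are shared and the time since induction differs. Age, sex and the number of animals behind each library are not given in the sources used here, and age moves with the weeks of diabetes. The time spent on the diet may differ between the libraries as well. Cells were chosen by a fixed rule: barcodes with at least 200 genes detected and at most 20% of their unique molecular identifiers (UMIs, the counted molecules) from mitochondrially encoded genes, with likely doublets removed. This left 11972 cells, 4283 at 8 weeks and 7689 at 4 weeks, of 29779 kept cells in the 4 libraries examined.

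The retina senses light with rods and cones, passes the signal through bipolar cells and shapes it with amacrine cells, while Müller glia supply, buffer and clear the tissue and microglia survey it. Photoreceptors have a very high demand for energy and for protein synthesis, and cells short of amino acids or under endoplasmic reticulum stress switch on the transcription factor ATF4, which drives genes of amino acid synthesis, amino acid import and tRNA charging. Müller glia are the main retinal source of the angiogenic factor VEGF-A, and microglia release chemokines when they are activated.

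There is 1 library a side, so no test between the times was possible. UMIs were summed per class and library and given as CPM, the UMIs of a gene scaled to the same class total in both libraries. The log2 ratio of 8 weeks over 4 weeks carries an exact 95% interval that covers counting error only, not differences between animals, dissections or library preparations, and it is not adjusted for the number of genes. Genes entered for a class when they averaged 20 CPM or more across the pair, with 30 or more UMIs in all, and are called used genes. A gene is called higher or lower here when its ratio reached 2-fold with an interval excluding 0. The libraries differ in depth and in RNA quality. The 4-week library gave 20151789 UMIs in 10717 barcodes and the 8-week library 24604362 UMIs in 7649 barcodes. Kept cells had a median of 903 UMIs and 584 genes at 4 weeks and of 1414 UMIs and 821 genes at 8 weeks. The median mitochondrial share over all barcodes was 3.27% at 4 weeks and 11.1% at 8 weeks, and 71.7% and 56.0% of barcodes were kept. The libraries shared 17 barcodes, 7 of them among kept cells.

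Of the 7 larger classes, all but the rods and Müller glia made up a larger share of the kept cells at 8 weeks. Rods were 85.2% of cells at 4 weeks (6550 cells, exact Clopper-Pearson 95% interval 84.4 to 86.0%) and 71.2% at 8 weeks (3051 cells, 69.9 to 72.6%). Cones, the photoreceptors of daylight and colour, were 0.741% (57 cells, 0.562 to 0.959%) and 2.66% (114 cells, 2.20 to 3.19%), which is 3.59-fold higher. Microglia were 1.00% (77 cells) and 3.78% (162 cells), 3.78-fold higher. Bipolar cells were 3.77% (290 cells) and 7.29% (312 cells), and amacrine cells 4.16% (320 cells) and 7.64% (327 cells). The bipolar share leaves out a cluster led by Pcp2 that stayed unnamed, with 0.26% and 1.494% of cells. Endothelial cells, the lining of the vessels, were 0.507% (39 cells) and 1.33% (57 cells). Müller glia were 3.93% (302 cells) and 3.60% (154 cells), with intervals that overlap. In the other 6 classes the intervals of the 2 libraries did not overlap.

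These shares move with the filters. Each deposited barcode had at least 500 UMIs, and rods, the smallest cells in RNA content, had a median of 846 UMIs at 4 weeks and 1026 at 8 weeks, against 4953.5 and 5344 in amacrine cells. With cells of at least 1000 UMIs, the log2 ratio of the shares was 0.31 for amacrine cells, 0.35 for bipolar cells and -0.77 for Müller glia, compared with 0.88, 0.95 and -0.13 without that minimum. It was 1.24 for cones, 1.23 for microglia and 0.72 for endothelial cells, compared with 1.84, 1.92 and 1.39. Most barcodes placed nearest to the bipolar cells exceeded the mitochondrial limit, 79.97% at 4 weeks and 87.55% at 8 weeks. The bipolar share thus rests on a minority of these barcodes. Among barcodes placed nearest to the microglia, 50.0% exceeded it at 4 weeks and 14.07% at 8 weeks. Mitochondrially encoded genes were not left out of this placement, so these percentages may partly reflect the mitochondrial level itself. How many cells of a class the limit removed is therefore not known. A larger share of a class cannot be told apart from better survival or capture of that class during dissociation.

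**Figure D1:**
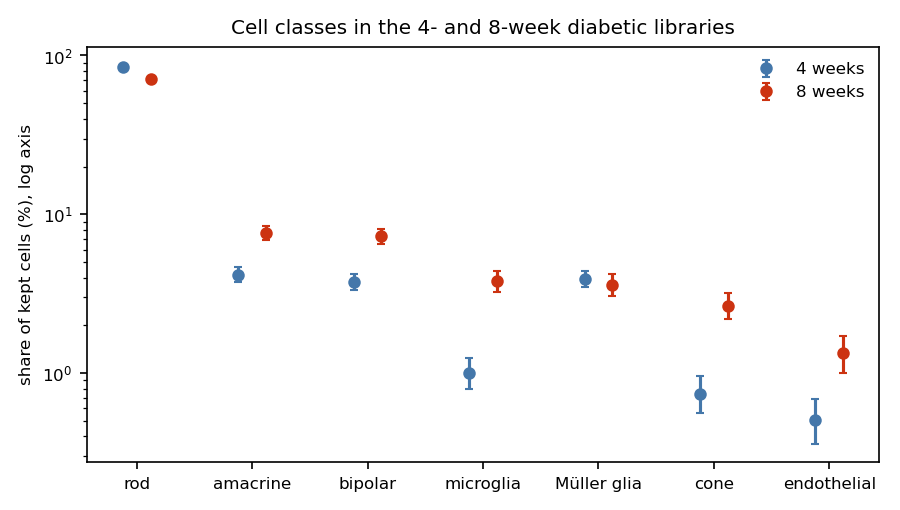
Share of kept cells (%, log axis) in each class in the 4-week and the 8-week diabetic library, with exact 95% binomial intervals for counting error. Rods fill 85.2% and 71.2% of the cells, the 5 classes of amacrine, bipolar, microglial, cone and endothelial cells lie higher at 8 weeks, and the Müller glia points overlap.

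In rods, 222 of 6064 used genes were higher at 8 weeks (3.66%) and 59 were lower (0.973%), with a median log2 ratio over all used genes of -0.03. Of the 16 named genes, Asns, asparagine synthetase and an ATF4 target, was furthest apart, with 2 gene models without a symbol further apart still (4.16 for AABR07015057.1 and 3.72 for AABR07000398.1). Its rod level was 18.3 CPM at 4 weeks (125 UMIs) and 211 CPM at 8 weeks (1034 UMIs), a log2 ratio of 3.52 (3.25 to 3.80). Sesn2, sestrin 2, which restrains mTORC1 when leucine is short, stood at 32.1 and 147 CPM (2.19, 1.98 to 2.42). Samd11, a polycomb-associated repressor of photoreceptors, stood at 24.95 and 136 CPM (2.44, 2.20 to 2.70). Asns transcripts were found in 1.80% of rods at 4 weeks and 24.55% at 8 weeks. In amacrine cells, which are deeper, the shares were 6.56% and 11.01%, so that rods went from below the amacrine share to above it. Samd11 was found in 2.52% and 18.06% of rods, against 0.00% (upper limit 1.15%) and 1.53% of amacrine cells.

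The other 5 of the 8 named genes highest in rods were Kansl1l (5.72 and 35.0 CPM, log2 ratio 2.60), Akap6, an anchor of protein kinase A (12.3 and 66.6 CPM, 2.43), Pop5, a subunit of RNase P (18.5 and 88.2 CPM, 2.25), Atp8a2, a phospholipid flippase of photoreceptor membranes (18.8 and 89.2 CPM, 2.24) and Eml1 (7.34 and 33.6 CPM, 2.18). The lowest was Khdrbs3, an RNA-binding splicing regulator, at 120 CPM at 4 weeks and 17.7 CPM at 8 weeks (-2.76, -3.10 to -2.44). It was followed by Ypel4 (114 and 28.5 CPM, -1.99), Ptprn, a protein of secretory granules (125 and 32.2 CPM, -1.95), Acy1, an aminoacylase (51.2 and 16.3 CPM, -1.65), and Zg16b (180 and 60.5 CPM, -1.57). Zmat4 (-1.57), Zfp385b (-1.56) and Lnx1 (-1.54) completed the 8 lowest.

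**Figure D2:**
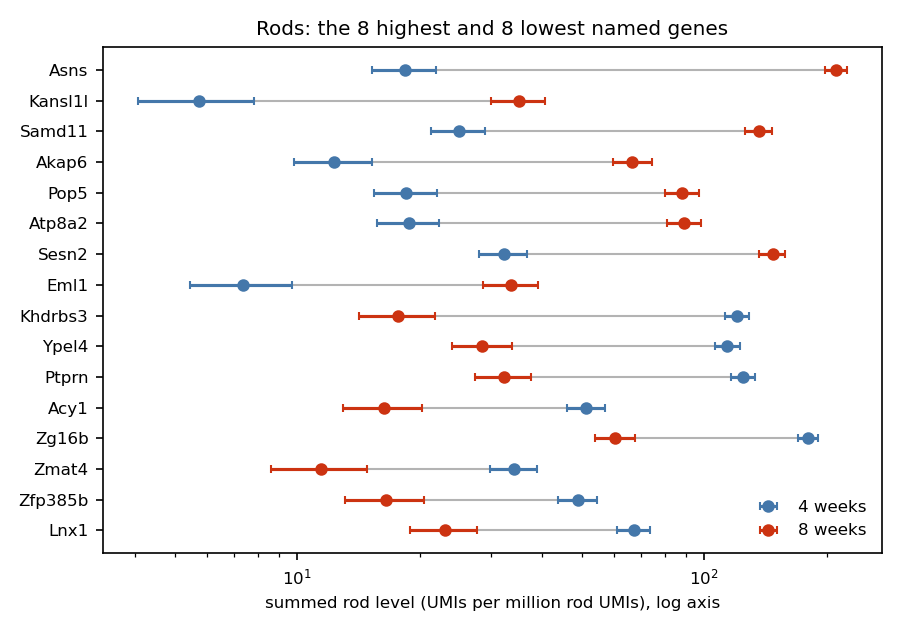
Summed rod level (CPM, log axis) of the 8 highest and the 8 lowest named genes in the 4-week and the 8-week library, with exact 95% counting intervals. Asns lies furthest apart, at 18.3 and 211 CPM, and no pair of intervals overlaps.

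The ATF4 genes of rods stood higher as a list at 8 weeks. Of 29 genes listed, 20 were used in rods, 18 of those had a ratio above 0 and 10 were called higher, none lower. The median log2 ratio was 0.86, beside -0.03 over all used rod genes. Chac1, a glutathione-degrading enzyme, was at 13.5 and 50.1 CPM (1.89, 1.54 to 2.25), and Slc1a4, a transporter of alanine, serine and cysteine, at 17.2 and 49.9 CPM (1.54). Atf3 (94.96 and 227 CPM, 1.26) and Ddit3, the stress factor CHOP (308 and 624 CPM, 1.02), were also called higher. Trib3, an inhibitor of ATF4 activity, was at 205 and 260 CPM (0.34) and Atf4 itself at 2749 and 2288 CPM (-0.26), and neither reached 2-fold. The aminoacyl-tRNA synthetases, which charge tRNAs with amino acids, had 15 of 18 genes above 0 and 6 called higher, with a median of 0.70. Lars was at 116 and 365 CPM (1.65), Mars at 64.7 and 203 CPM (1.65), Iars at 59.0 and 183 CPM (1.63) and Eprs at 97.0 and 233 CPM (1.26). ER chaperones and degradation genes were not part of this pattern: 15 of their 19 used members were below 0, none was called, and the median was -0.24.

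The ATF4 list differed between classes in its median, with -0.11 for cones, 0.17 for bipolar cells, 0.04 for amacrine cells, 0.17 for Müller glia and 0.65 for microglia. In the control and 2-week libraries, which are not part of the comparison, the rod level of Asns was 267 and 9.63 CPM, of Sesn2 215 and 9.63 CPM, of Chac1 185 and 0.232 CPM, of Atf3 412 and 24.6 CPM and of Samd11 145 and 31.8 CPM. For each of these 5 genes the 8-week level thus lay nearer to the single control library than the 4-week level did, and the 2-week level lay nearer to the 4-week one. Which libraries were prepared together is not given in the sources used here, so weeks of diabetes and library preparation cannot be told apart in these ratios.

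Because both lists hold ATF4 targets, the 250 bases before each gene's start in the RefSeq promoter table (build GRCr8) were searched for TGATGNAA, a form of the C/EBP-ATF response element, on both strands. The motif lay before 983 of 27457 genes (3.58%). It lay before 4 of the 19 matched ATF4-list genes used in rods (Chac1, Pck2, Slc1a4 and Trib3) and before 5 of the 15 matched synthetase genes (Aars, Iars, Mars, Nars and Tars). Of those, Chac1, Slc1a4, Iars, Mars and Tars were called higher in rods, and their upstream sequences are printed to show where the match sits, 5′ to 3′ on the gene's own strand with the match in capitals. Each match reads TTGCATCA on that strand. It begins 167 bases before the start in Chac1 (chr3:126795881-126796130, plus strand), 235 in Slc1a4 (chr14:98761563-98761812, minus strand), 24 in Iars (RefSeq Iars1, chr17:15193653-15193902, minus), 17 in Mars (Mars1, chr7:65023754-65024003, minus) and 27 in Tars (Tars1, chr2:62114803-62115052, minus). The upstream window of Asns held no match, and a match is a description of letters, not a site.
Chac1: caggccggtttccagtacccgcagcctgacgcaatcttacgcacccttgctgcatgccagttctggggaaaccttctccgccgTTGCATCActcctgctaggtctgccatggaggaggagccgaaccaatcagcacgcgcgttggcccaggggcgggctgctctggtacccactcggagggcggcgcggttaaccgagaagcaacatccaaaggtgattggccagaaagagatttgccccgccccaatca
Slc1a4: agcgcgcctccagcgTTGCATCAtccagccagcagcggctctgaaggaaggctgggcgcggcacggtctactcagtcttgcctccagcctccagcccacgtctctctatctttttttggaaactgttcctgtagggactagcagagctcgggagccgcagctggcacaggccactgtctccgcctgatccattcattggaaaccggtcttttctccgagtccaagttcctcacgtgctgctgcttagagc
Iars1: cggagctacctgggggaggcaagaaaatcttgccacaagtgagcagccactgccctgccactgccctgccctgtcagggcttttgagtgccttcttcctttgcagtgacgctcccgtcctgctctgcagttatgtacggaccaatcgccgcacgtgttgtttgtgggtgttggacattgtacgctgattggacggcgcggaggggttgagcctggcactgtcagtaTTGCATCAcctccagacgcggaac
Mars1: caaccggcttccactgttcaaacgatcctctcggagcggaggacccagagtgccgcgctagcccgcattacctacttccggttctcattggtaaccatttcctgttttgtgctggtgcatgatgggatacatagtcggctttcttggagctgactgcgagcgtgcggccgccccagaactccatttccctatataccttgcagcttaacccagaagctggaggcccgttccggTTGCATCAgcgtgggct
Tars1: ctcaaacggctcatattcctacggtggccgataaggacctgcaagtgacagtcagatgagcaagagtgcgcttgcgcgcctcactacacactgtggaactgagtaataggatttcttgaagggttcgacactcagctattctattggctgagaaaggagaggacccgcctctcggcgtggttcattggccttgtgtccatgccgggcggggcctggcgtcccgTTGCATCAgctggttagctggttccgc

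Nuclear and mitochondrial genes of energy metabolism differed in direction in rods. Of 63 used nuclear genes of the respiratory chain, 60 were below 0, with a median of -0.41 and none called. Cox6c, a cytochrome oxidase subunit, had 865 CPM at 4 weeks and 460 CPM at 8 weeks (-0.91), and Ndufa4 had 2557 and 1456 CPM (-0.81). Glycolytic genes had 11 of 14 below 0 and a median of -0.58. Tpi1, triosephosphate isomerase (79.0 and 26.7 CPM, -1.56), and Aldoc, aldolase C (743 and 367 CPM, -1.02), were called lower and Pfkp (17.2 and 36.7 CPM, 1.09) higher. All 12 used mitochondrially encoded genes were above 0, with a median of 0.42. Mt-nd4l (49.6 and 169 CPM, 1.77) and Mt-nd5 (166 and 376 CPM, 1.18) were called. The median mitochondrial share of kept cells also differed, at 2.14% and 4.03%. Photoreceptor transcription factors had 10 of 12 above 0 (median 0.54), Crx, the photoreceptor master regulator, at 15.7 and 28.5 CPM (0.86) among them. Ribbon synapse genes had 6 of 18 called higher, such as Cplx3 (15.1 and 47.0 CPM, 1.63) and Stx3 (96.1 and 235 CPM, 1.29), with a median of 0.18. The rod phototransduction list had a median of -0.03, with Pde6g (27.5 and 79.6 CPM, 1.53) and the retinoid flippase Abca4 (213 and 487 CPM, 1.19) called higher among 27 genes.

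Markers of neighbouring cells moved with these rod values. The summed level of 14 bipolar markers in rods was 206 CPM at 4 weeks and 481 CPM at 8 weeks, and that of 11 cone markers 164 and 360 CPM. Otx2 and Lrtm1 among the bipolar markers were at 0 in both, and Cnga3 among the cone markers. Otx2 and Lrtm1 were also at 0 in the bipolar class itself in both libraries, and Cnga3 in cones at 8 weeks. These zeros therefore say little about such RNA in rods. The 6 used genes of the ON bipolar cascade were all above 0 in rods, with a median of 1.10, including Pcp2 (67.7 and 178 CPM, 1.39) and Prkca (42.7 and 115 CPM, 1.43), and Pde6h of cones was at 10.4 and 71.5 CPM (2.77). The part of this RNA in the other rod ratios was not tested.

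Different clusters held most of the rods at the 2 times. Cluster 2 held 56.98% of rods at 4 weeks and 10.36% at 8 weeks, while cluster 0 held 9.22% and 40.97% and cluster 4 held 8.32% and 39.0%. Ratios were therefore taken inside each of the 5 large rod clusters. The clusters were formed from these same counts without aligning the libraries, and the top genes of cluster 0 include Trib3. Ratios within clusters, those of ATF4 genes included, are thus not independent of the split. Asns was higher at 8 weeks in all 5, by 2.72 to 3.94 on the log2 scale. In cluster 2 its level was 17.9 and 192 CPM (3.43, 2.87 to 3.98), and in cluster 0 it was 33.6 and 227 CPM (2.72, 2.05 to 3.56). Khdrbs3 was lower in all 5 (-2.16 to -3.45), and so was RT1-A2 (-1.04 to -1.58). Sesn2 was higher in all 5 (0.74 to 2.59), although in cluster 3 its interval included 0 (-1.83 to 2.28). The ATF4 list median was 0.36 in cluster 0, 0.49 in cluster 1, 0.58 in cluster 2, 0.79 in cluster 3 and 0.90 in cluster 4, and that of the synthetases 0.61 to 1.09. Chac1, Atf3 and Samd11 did not keep their ratios in every cluster. Chac1 was at 3.45 (2.09 to 5.96) in cluster 4, 0.66 (0.07 to 1.33) in cluster 0 and 0.17 (-1.91 to 1.47) in cluster 2, and cluster 1 held no Chac1 UMI at 8 weeks. Atf3 was at 1.39 (1.05 to 1.75) in cluster 4 but at 0.0002 (-0.28 to 0.29) in cluster 0, and its intervals in clusters 1, 2 and 3 included 0. Samd11 was above 0 in all 5, but at 1.07 to 1.30 in clusters 0, 1 and 2, less than the 2.44 of all rods together. Trib3 was at -0.56 (-0.78 to -0.34) in cluster 0 and -0.60 in cluster 2, and above 0 in the other 3. The respiratory chain median was -0.09 to -0.30 inside clusters, closer to 0 than the -0.41 of all rods together, and mitochondrially encoded genes had medians from -0.49 in cluster 3 to 0.77 in cluster 4.

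**Figure D3:**
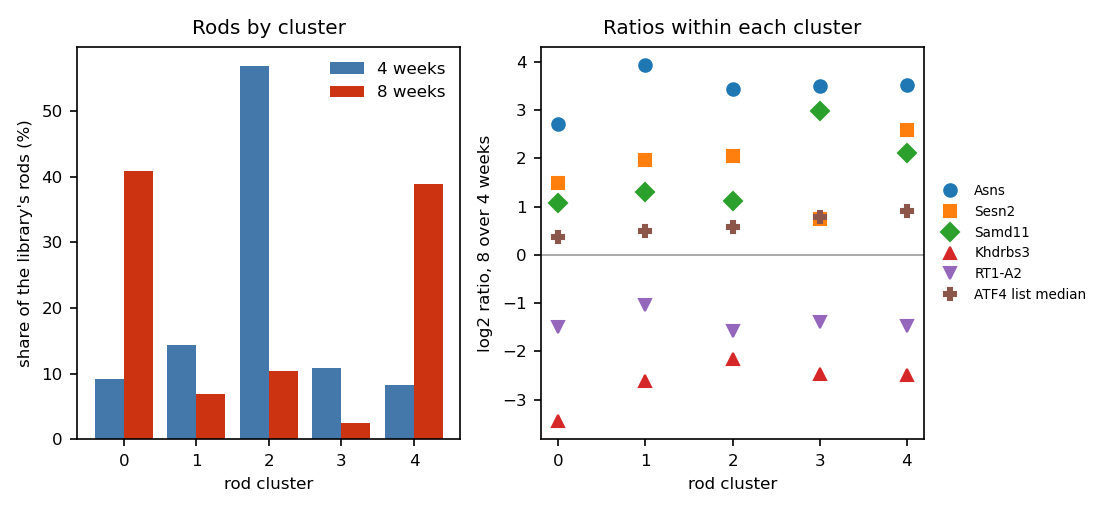
Left, the share of each library's rods (%) in the 5 large rod clusters, with cluster 2 at 56.98% of rods at 4 weeks and 10.36% at 8 weeks. Right, log2 ratios of 8 over 4 weeks within each cluster, where Asns, Sesn2, Samd11 and the ATF4 list median lie above 0 and Khdrbs3 and RT1-A2 below 0 in all 5.

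In cones, 133 of 3104 used genes were higher at 8 weeks (4.28%) and 81 were lower (2.61%). With 57 and 114 cells, intervals are wide. Of the light-signalling genes that define cones, 11 of 14 used members were above 0, 3 were below and 4 were called higher, with a median of 0.36 beside -0.03 over all used cone genes. Pde6h, the inhibitory subunit of the cone phosphodiesterase, was at 9410 and 24086 CPM (1.36, 1.29 to 1.42). Its catalytic partner Pde6c was at 187 and 520 CPM (1.46), and the channel subunit Cngb3 at 187 and 488 CPM (1.37). Opn1mw, the middle-wavelength opsin, was at 487 and 1035 CPM (1.08), and Opn1sw, the short-wavelength opsin, at 2022 and 2671 CPM (0.40), below 2-fold. Opn1mw was found in 71.93% and 93.86% of cones and Opn1sw in 15.79% and 42.11%. In amacrine cells these shares were at most 0.31%. The median depth of cones was 4058 and 3934 UMIs.

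Of the other genes higher in cones, Pax4, a developmental transcription factor, was at 65.2 and 323 CPM (2.26, 1.54 to 3.18), Lrit3, a synaptic adhesion protein that organises the bipolar contact, at 43.5 and 206 CPM (2.18), and Pop5 at 26.1 and 181 CPM (2.69). Kif4a was counted with 2 UMIs at 4 weeks and 45 at 8 weeks, a log2 ratio of 3.23 with an interval from 1.599 to 6.62. Slc1a2, a glutamate transporter, had 3 and 42 UMIs (2.65, 1.20 to 5.19). Tex28 (2.40), Caprin1 (2.28) and Cdc73 (2.02) completed the 8 highest. Lower were Acy1 at 357 and 44.8 CPM (-2.97, -3.78 to -2.27), Ypel4 at 113 and 15.7 CPM (-2.78), Lmo1 at 95.7 and 20.2 CPM (-2.20) and Cd63, a tetraspanin of lysosomes, at 374 and 89.6 CPM (-2.05). Rbp4, a retinol carrier, was at 2422 and 813 CPM (-1.57), Lrpap1 at 261 and 87.4 CPM (-1.57), Gsk3a at 117 and 35.8 CPM (-1.69) and Mfsd10 at 100.01 and 31.4 CPM (-1.65). Acy1 and Ypel4 were also among the lowest in rods.

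Cones carried much rod RNA in both libraries. The summed level of 10 rod markers in cones was 17324 CPM at 4 weeks and 20270 CPM at 8 weeks, beside 58986 and 55077 CPM in rods themselves, with Nr2e3 at 0 in both. Over the same cells the 11 cone markers summed to 29717 and 51078 CPM. Müller markers in cones summed to 491 and 1311 CPM, and Apoe, called higher in cones with 2 and 51 UMIs (3.41, 1.79 to 6.80), had 82.4% of its 8-week UMIs in 1 cell and turned to -1.76 with doublets kept and to -0.48 with free RNA subtracted. Free RNA was not measured: its profile was taken as the sum of all kept cells of a library. All rod marker UMIs in cones were counted as free, which gave 49.1% of cone UMIs at 4 weeks and 70.2% at 8 weeks. These estimates are too high if cones express any of those genes themselves. This estimated part was also subtracted. Cones then had 92 genes higher and 125 lower of 1278 used, and the cone phototransduction median was 0.90.

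Bipolar cells had 158 of 5719 used genes higher at 8 weeks (2.76%) and 87 lower (1.52%), with a median log2 ratio of -0.01. Among the highest were Btf3 (6.47 and 39.2 CPM, 2.50), Slc3a1, an amino acid transporter subunit (10.8 and 59.2 CPM, 2.40, 1.49 to 3.58), Ttc9 (19.4 and 102 CPM, 2.36), Spock3 (2.05), Fam135b (1.98), Smdt1, a regulator of the mitochondrial calcium uniporter (1.85), and Ssbp2 (1.83). Mfsd10 was lowest, at 47.4 and 5.22 CPM (-3.08, -4.71 to -1.95), followed by Ppp1r3c, a glycogen-targeting subunit of protein phosphatase 1 (53.9 and 16.5 CPM, -1.68). Matk, Thap12 and Kifc2 had a ratio of -1.45 each, and Mcm3ap (-1.36), Fbxw4 (-1.34) and Gapvd1 (-1.33) followed.

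The ON bipolar cascade, by which ON bipolar cells respond to light, had 8 of 10 genes above 0 and none called, with a median of 0.36. ON and OFF bipolar cells were not separated in this class. The channel Trpm1 was at 205 and 339 CPM (0.72) and Pcp2, a G-protein modulator, at 454 and 770 CPM (0.76). Of 10 immediate early genes, 6 were below 0 and 4 above, with a median of -0.35. Fos, at 475 and 154 CPM (-1.62, -1.89 to -1.37), and Egr1, at 135 and 59.2 CPM (-1.18), were called lower. Rod phototransduction genes, which bipolar cells do not use, had 20 of 22 above 0 with a median of 0.38. The summed level of 10 rod markers in bipolar cells was 5655 CPM at 4 weeks and 7619 CPM at 8 weeks. With free RNA subtracted, estimated from these genes at 16.0% and 26.4% of bipolar UMIs, 182 genes were higher and 203 lower of 5319 used. The median of immediate early genes was then -3.67. Sums that fell below 0 were set to 0, so the size of this median can depend on the subtraction itself. As in cones, the estimates are too high if bipolar cells express any of those genes. A cluster led by Pcp2 with both rod and bipolar markers stayed unnamed, with 20 and 64 cells. Its top genes include the bipolar markers Pcp2, Prkca, Isl1 and Trpm1, and the bipolar values above leave it out. At the finer resolution of 2.0, a Pcp2-led cluster of 20 and 66 cells was named bipolar. Counting the unnamed cluster as bipolar, a choice made after seeing the data, gave 362 genes higher in place of 158.

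Amacrine cells were the class with the smallest share of genes apart, 102 of 5830 used genes higher (1.75%) and 48 lower (0.823%). This ranking is not adjusted for the depth of each class. Dpysl2, a regulator of axon growth, was at 17.3 and 59.2 CPM (1.76, 1.21 to 2.38), and Sec14l3, a lipid-binding protein, at 15.7 and 57.2 CPM (1.85). Prr35 (1.81), Coprs (1.72), Mrpl33 of the mitochondrial ribosome (1.68), Anxa2 (1.66), Bex4 (1.64) and Selenot (1.57) were the other 6 of the 8 highest. The lowest was Crh, the stress peptide corticotropin-releasing hormone, at 55.1 and 4.44 CPM (105 and 9 UMIs, -3.56, -4.80 to -2.65). It was found in 12 of 320 cells at 4 weeks and in 1 of 327 at 8 weeks, which held all 9 UMIs. Pcp4l1 was at 230 and 74.0 CPM (-1.63) and Spp1, osteopontin, at 46.1 and 17.3 CPM (-1.41). Ppif (-1.51), Rnf112 (-1.36), Enc1 (-1.35, but 1.09 with at most 10% mitochondrial UMIs), Nmt2 (-1.34) and Ptpre (-1.30) followed.

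The 5 used neuropeptides of amacrine cells had no common direction, with 3 above 0 and 2 below. Tac1, the substance P precursor, was below 0 with Crh, at 661 and 540 CPM (-0.29, -0.41 to -0.17). Vip, vasoactive intestinal peptide, was at 254 and 465 CPM (0.87, 0.71 to 1.03) and found in 3.44% and 6.73% of cells. Cartpt was at 2240 and 3908 CPM (0.80, 0.75 to 0.86) and found in 39.06% and 43.73% of cells. Adcyap1, the precursor of PACAP, had 1 UMI in 1 cell at 4 weeks and 47.9 CPM in 6 cells at 8 weeks (5.93, 4.00 to 11.83), where 1 cell held 90.7% of its UMIs. The summed level of 10 ganglion cell markers in the amacrine class was 284 CPM at 4 weeks and 933 CPM at 8 weeks, with Pou4f1 at 0 in both and Pou4f2 at 0 at 4 weeks, and its part in the amacrine ratios was not tested. Müller glia held none of Adcyap1, Crh or Vip in either library, which limits cells with a UMI, not cells expressing the gene, to 1.21% at 4 weeks and 2.37% at 8 weeks. Cluster 8, whose top genes include Cartpt and Vip, held 35.31% of the amacrine cells at 4 weeks and 44.34% at 8 weeks, and its part in these levels was not tested. Immediate early genes had 9 of 12 below 0 and a median of -0.56, and 3 were called lower: Dusp1 (145 and 56.7 CPM, -1.35), Fosb (104 and 45.4 CPM, -1.19) and Fos (592 and 295 CPM, -1.003). GABA and glycine genes had 6 of 12 above 0 and a median of 0.05, with the receptor subunit Gabra2 called higher (23.6 and 62.7 CPM, 1.40).

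Müller glia had 159 of 5841 used genes higher (2.72%) and 147 lower (2.52%), the most even split of the 6 classes. Vegfa was at 864 CPM at 4 weeks (820 UMIs) and 325 CPM at 8 weeks (147 UMIs), a log2 ratio of -1.41 (-1.68 to -1.16). Müller glia with a Vegfa UMI were 80.46% and 55.84%, at median depths of 3184 and 2972.5 UMIs. The control and 2-week libraries stood at 288 and 465 CPM. In the other classes Vegfa was not called: rods held 107 and 154 CPM (0.53), bipolar cells 186 and 115 CPM (-0.70), amacrine cells 122 and 81.9 CPM (-0.57). Of 14 used hypoxia targets in Müller glia, Vegfa included, 10 were below 0 and 4 above, with a median of -0.36 beside 0.03 over all used Müller genes. The 4 called lower were Vegfa, the lactate exporter Slc16a3 (81.1 and 13.3 CPM, -2.51, -4.10 to -1.43), the collagen hydroxylase P4ha2 (46.4 and 17.7 CPM, -1.32) and Ero1a (42.2 and 19.9 CPM, -1.02). Glycolytic genes had 12 of 13 below 0 and a median of -0.37, with hexokinase 2, Hk2, at 150 and 50.8 CPM (-1.53) and Tpi1 called.

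Genes of glial reactivity had no common direction in Müller glia, with 6 of 10 above 0 and a median of 0.19. Gfap, the intermediate filament of reactive glia, was called lower at 114 and 50.8 CPM (-1.14, -1.88 to -0.50), with 36.1% of its 4-week UMIs in 1 cell, and with at most 10% mitochondrial UMIs its ratio was 0.0066 (-0.91 to 0.84). Gadd45b was the other member called lower (-1.32), while Cd44 (0.72), Stat3 (0.53) and Vim, vimentin (0.17), were above 0 and not called. Immediate early genes had 9 of 11 below 0, a median of -0.93 and 3 called lower: Klf4 (72.7 and 22.1 CPM, -1.66), Btg2 (176 and 57.4 CPM, -1.59) and Egr1 (187 and 64.1 CPM, -1.52). Lmcd1, a transcriptional cofactor, had 81 UMIs at 4 weeks and 1 at 8 weeks (-4.70, -10.59 to -2.75). Serping1, the complement C1 inhibitor, Gcn1 and Nmt2 had 3 UMIs each at 8 weeks (-2.31, -2.19 and -2.19), and Cpt1b (-1.99), Mfsd10 (89.6 and 22.1 CPM, -1.96) and Meis3 (-1.92) were also lower. Genes of Müller homeostasis did not follow. Glul, glutamine synthetase, was at 7055 and 8906 CPM (0.34), the water channel Aqp4 at 694 and 976 CPM (0.49), and Car14, carbonic anhydrase 14, at 420 and 939 CPM (1.16, called), with 9 of 13 genes above 0 and a median of 0.29. Apoe, the lipid carrier, was at 34418 and 29602 CPM (-0.22).

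Among the genes higher in Müller glia was RT1-A1, a class I histocompatibility gene, at 63.2 and 318 CPM (2.32, 1.89 to 2.79). Cyp4v3 (9.48 and 48.6 CPM, 2.31), Aprt (2.25), Cdon (2.15), Zfp771 (2.15), Vasn (2.09), Nt5c2 (2.03) and Epb41l5 (1.85) followed, each with 9 to 14 UMIs at 4 weeks. Prss56, a secreted serine protease linked to eye size, had 1 UMI at 4 weeks and 191 at 8 weeks (1.05 and 422 CPM, 8.06, 6.15 to 13.96). At 8 weeks 1 cell held 25% or more of these UMIs. Prss56 was found in 1 of 302 and 21 of 154 cells, against 0 and 1 amacrine cells. In the control library it stood at 179 CPM and at 2 weeks at 39.0 CPM. Heat shock genes had 13 of 16 above 0 (median 0.34), with Hsph1 at 16.9 and 48.6 CPM (1.52), and ER chaperones 17 of 20 (median 0.26), with Hspa5, BiP, at 406 and 521 CPM (0.36). Rod phototransduction genes, which Müller glia do not use, had 17 of 19 below 0 and a median of -0.75. The 10 rod markers summed to 2681 and 1654 CPM in Müller glia, opposite to the bipolar cells. With free RNA subtracted, at 7.59% and 5.73% of Müller UMIs, 164 genes were higher and 145 lower of 5508 used, and the hypoxia median was -0.39.

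**Figure D4:**
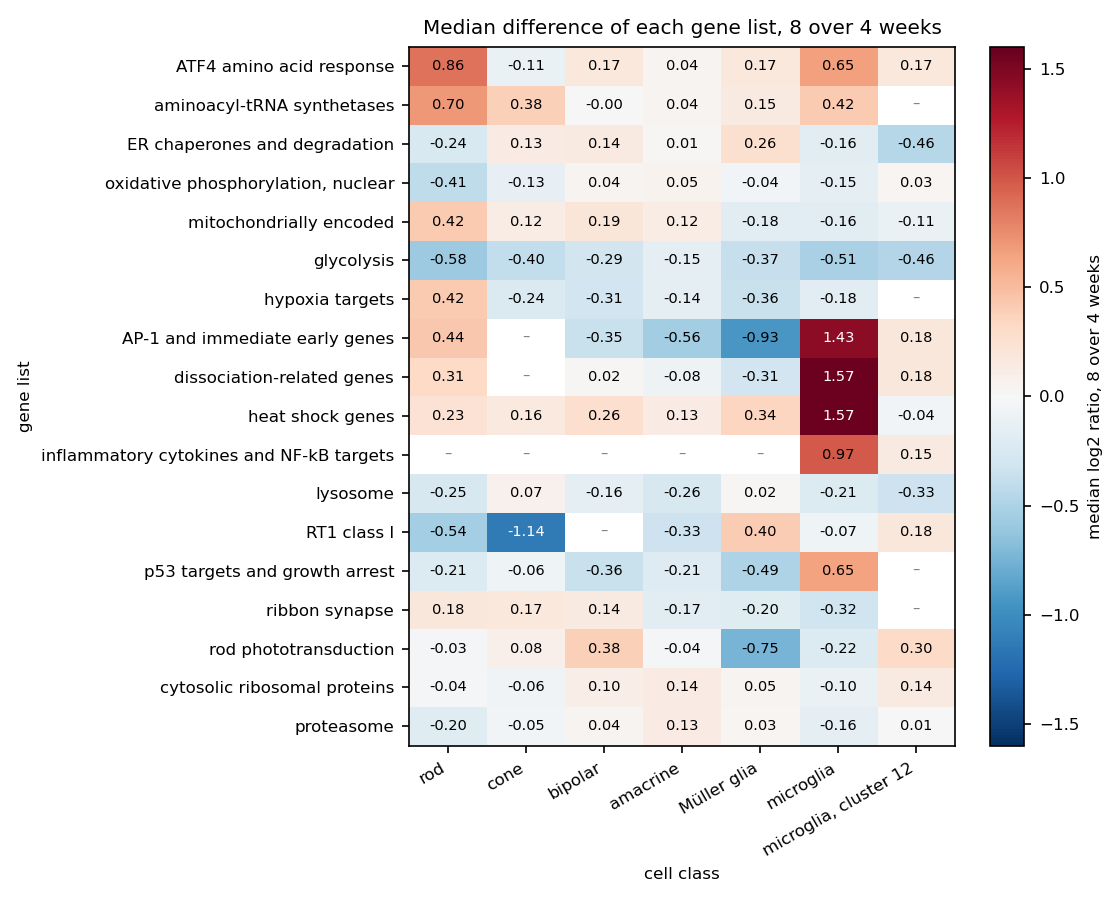
Median log2 ratio of 8 over 4 weeks (colour and printed value) for the used members of each gene list (rows) in each class and in microglia of cluster 12 alone (columns), with a dash where fewer than 5 members were used. The ATF4 list reads 0.86 in rods, glycolysis is below 0 in every column, and heat shock genes read 1.57 in all microglia and -0.04 in cluster 12.

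Microglia had the largest share of genes apart of the 6 classes, with 182 of 3440 used genes higher (5.29%) and 110 lower (3.20%). This ranking is not adjusted for depth, and counting error is larger in small sums. Microglia had 320278 UMIs at 4 weeks and 685629 at 8 weeks, beside 1907152 and 2026628 in amacrine cells. The 2 libraries also held different mixtures of microglia. Of the 77 microglia at 4 weeks, 8 (10.39%) lay in cluster 17, whose top genes include Ccl4, and of the 162 at 8 weeks, 50 did (30.86%). The others lay in cluster 12, with 69 and 112 cells. Over both clusters together, the chemokine Ccl4 was at 465 and 4034 CPM (3.11, 2.88 to 3.36) and Ccl3 at 949 and 2787 CPM (1.55). A single cell held 75.2% of the Ccl4 and 40.1% of the Ccl3 UMIs at 4 weeks. Hspa1b, an inducible heat shock protein, was at 21.9 and 859 CPM (5.20, 4.24 to 6.62), Gadd45b at 43.7 and 438 CPM (3.28), the cell cycle gene Cks2 at 12.5 and 175 CPM (3.64) and Idi1 of cholesterol synthesis at 34.3 and 298 CPM (3.05). Rtp3 had 1 and 46 UMIs (3.86, 1.88 to 9.76) and RT1-T24-4 had 2 and 64 UMIs (3.59, 1.99 to 6.98). Ccl4 was found in 7.79% and 23.46% of microglia, with 0.31% of amacrine cells at both times. Tnf was at 50.0 and 97.7 CPM (0.93) and Il1b at 746 and 863 CPM (0.21), neither called.

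All 15 used immediate early genes of microglia were above 0, 10 of them called, with a median of 1.43 beside -0.08 over all used microglial genes. All 17 used heat shock genes were above 0, with 11 called and a median of 1.57. Of 17 cytokine and NF-kB genes, 14 were above 0 and 8 called (median 0.97), Cxcl2 at 206 and 955 CPM (2.20) among them. A list of genes known to be induced by tissue dissociation had all 15 used members above 0, 12 called, and a median of 1.57, and it shares members with the first 2 lists. In rods 10 of 11 used dissociation genes were above 0 (median 0.31), and in bipolar cells 6 of 11 (0.02). In amacrine cells 4 of 12 were above 0 (-0.08) and in Müller glia 3 of 11 (-0.31). The part of dissociation in the immediate early genes of any class was not tested. Homeostatic receptor genes had 10 of 16 above 0 and a median of 0.11, with P2ry12, the purine receptor of resting microglia (119 and 296 CPM, 1.30), and Gpr34 (81.2 and 188 CPM, 1.19) called higher.

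Within cluster 12 alone these lists lay near 0, at 0.18 for immediate early genes, -0.04 for heat shock genes, 0.15 for cytokine and NF-kB genes and 0.18 for dissociation genes. Ccl4 there was at 50.6 and 63.0 CPM (0.30, -0.79 to 1.47), Ccl3 at 81.8 and 91.0 CPM (0.15, -0.73 to 1.06), Hspa1b had 6 and 2 UMIs, Gadd45b 2 at each time and Rtp3 none. RT1-A1, by contrast, was at 38.9 and 795 CPM within the cluster (4.28, 3.45 to 5.43), beside 71.8 and 757 CPM over all microglia (3.37). Of 1916 used genes in cluster 12, 54 were higher and 88 lower, beside the 182 and 110 over both clusters. Leaving cluster 17 out was a choice made after seeing the data. Clusters 12 and 17 were also split on these same counts, with Ccl4 among the top genes of cluster 17. Values near 0 for such genes in cluster 12 are therefore not independent of the split. Cluster 12 microglia and the whole class were both lower in Ccl6, a chemokine (272 and 52.5 CPM in all, -2.36, and -1.597 in the cluster). Both were also lower in Mfsd10 (122 and 29.2 CPM, -2.04, and -2.60) and Pdk1, an inhibitory kinase of pyruvate dehydrogenase (90.6 and 23.3 CPM, -1.94, and -1.604). The same held for Trnt1 (-1.74 and -1.66), Nsmce2 (-1.63 and -1.74), Ighm (-1.59 and -1.45) and Fh, fumarase (219 and 72.9 CPM, -1.58, and -1.25). Vrk3 was at -1.79 in all microglia and at -1.11 in the cluster with an interval that included 0. Glycolytic genes were below 0 in 11 of 11, with a median of -0.51, and -0.46 in cluster 12.

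**Figure D5:**
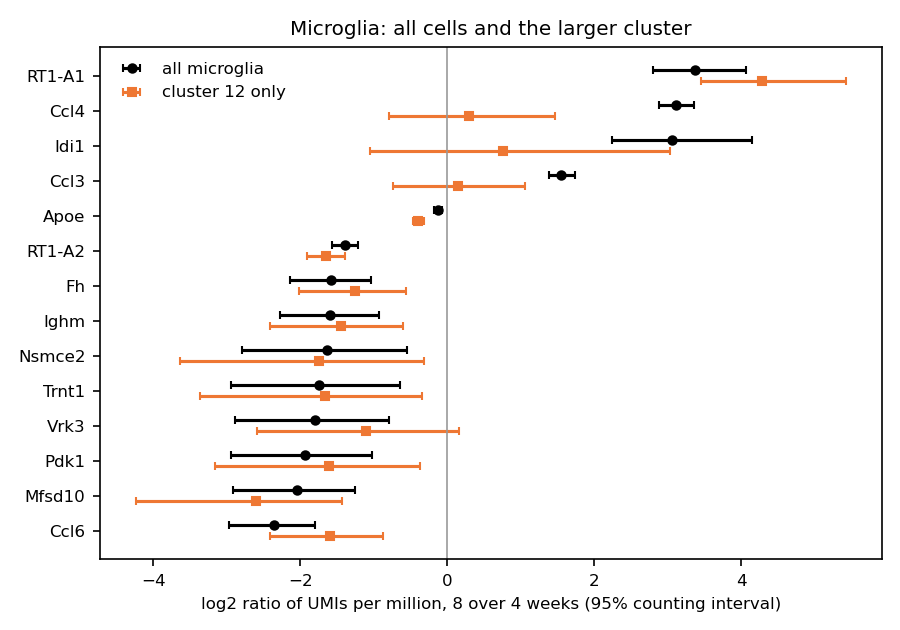
Log2 ratio of 8 over 4 weeks with exact 95% counting intervals in all microglia and in cluster 12 alone. Ccl4 lies at 3.11 in all microglia and at 0.30 in cluster 12, whereas RT1-A1 lies above 2-fold and RT1-A2, Ccl6 and Mfsd10 below it in both.

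A few genes stood apart in the same direction in nearly every class. Of 2000 genes used in all 6 classes, 93.75% were called higher in none and 93.65% lower in none, and 5 were called higher in at least 5 classes and 2 lower. Tpi1 was lower in all 6, with log2 ratios of -1.15 to -1.605: its level was 79.0 and 26.7 CPM in rods, 226 and 73.9 for cones, 518 and 223 for bipolar cells, 699 and 316 for amacrine cells, 179 and 77.3 for Müller glia and 56.2 and 23.3 for microglia. RT1-A2 was lower in 5 classes and at -0.94 in Müller glia, with 907 and 322 CPM in rods and 1842 and 703 CPM in microglia. Vbp1, a subunit of prefoldin, was called higher in 5 classes (1.01 to 1.32) and at 0.63 in microglia, with cones turning to -0.10 (-1.85 to 1.90) at most 10% mitochondrial UMIs, and the elongation factor Eef1a1 in 5 (1.20 to 1.76) and at 0.85 in rods. Rpl30, a ribosomal protein, was higher in all 6 (1.09 to 1.98). The largest of these differences belonged to the unnamed gene models AABR07015057.1 and AABR07000398.1, which the files give without a symbol. These and Rpl30 were outside the rule for named genes and were chosen after their values were seen. AABR07000398.1 stood at 167 and 2208 CPM in rods, 194 and 2164 CPM in amacrine cells and 162 and 1291 CPM in microglia, and in the control and 2-week rods at 2466 and 165 CPM. Tpi1, Eef1a1, Rpl30 and the RT1 genes have near-identical copies or relatives in the genome, so how reads were shared among them is uncertain.

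The RT1 class I genes, the rat's polymorphic antigen-presenting genes, had no common direction. In rods 5 of 6 were below 0 with a median of -0.54, RT1-CE10 (870 and 344 CPM, -1.34) and RT1-A1 (341 and 165 CPM, -1.04) among the 3 called lower and RT1-CE4 (12.5 and 35.2 CPM, 1.49) called higher. In cones all 5 used genes were below 0, with a median of -1.14 and 3 called. In Müller glia 8 of 10 were above 0, with a median of 0.40, and in microglia 5 of 12, with a median of -0.07. RT1-A1 was lower in rods and higher in amacrine cells (13.6 and 50.8 CPM, 1.88), Müller glia and microglia, while RT1-A2 was below 0 in every class.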

How the data were processed

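Retinal cells of 5 samples were profiled with 10x Genomics single-cell RNA sequencing, and the 4- and 8-week diabetic libraries were compared here. Control replicate 1 was not analysed here. The deposited matrices hold raw counts of UMIs per gene and barcode, not normalized by the authors. Cell Ranger 3.0.1 and Rnor_6.0 are named in the submitters' processing notes. Symbols are those of the files.

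Barcodes needed 200 detected genes or more and no more than 20% mitochondrial UMIs. Scrublet (scanpy 1.11.5) called 0 doublets in either library at its automatic threshold, so cells were removed from the top of the score ranking at a rate of 0.8% per 1000 barcodes, 721 at 4 weeks and 279 at 8 weeks. Cells of all 4 libraries were clustered together on 2000 variable genes, 30 principal components and 15 neighbours (Leiden, leidenalg 0.10.2, resolution 1.0), and clusters were named from marker lists. Of the kept cells, 99.4% lay nearest to the mean of a cluster of their own class. The means were taken from these same cells, so high agreement is partly built in. Classes with at least 50 cells in both libraries were compared, which leaves out endothelial genes. Markers that named a class are kept in its lists, so their levels describe the class.

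Ratios used 0.5 added to each UMI sum and exact conditional binomial intervals, and shares used Clopper-Pearson intervals. PCR duplicates are collapsed by UMIs, and intervals cover counting error only. The scripts were tested on simulated data. Per class, the 8 highest and 8 lowest called genes are named, where, in the library with the higher level, the class level was at least that over all cells (0.5 of it for rods) and no cell held 25% or more of the UMIs. That rule leaves out ribosomal and mitochondrial genes and gene models without a symbol, and some genes it names are not reported here. Up to 4 members per list described, genes apart in nearly every class, and a few fixed genes are added. The comparison, its lists and its named genes were chosen with earlier results of these data known. Alternatives changed the mitochondrial limit, a minimum of 1000 UMIs, the clustering, doublet removal, the minimum level, thinning to 1000 UMIs, TMM scaling (edgeR 4.0.16), free RNA and single cells. Upstream sequences come from RefSeq (GRCr8).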

Additional observations from a re-analysis of the deposited data

Results flagged for a closer look

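Each of these genes was at least 2-fold higher in one class and at least 2-fold lower in another under the same comparison, with counting intervals that exclude 0. The difference between classes was not tested. Gadd45b, a growth arrest gene, had a log2 ratio of 8 over 4 weeks of 3.28 in microglia and of -1.32 in Müller glia, and within microglial cluster 12 it had 2 UMIs at each time. RT1-A1, a class I histocompatibility gene, was at 1.88 in amacrine cells, 2.32 in Müller glia and 3.37 in microglia but at -1.04 in rods, where rod cluster 3 stood at 0.17. Zg16b was at 2.14 in microglia and at -1.57 in rods, and among rod clusters it was at 1.78 in cluster 1 and below 0 in the other 4 large clusters.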

How the results depend on the processing

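No paired analysis was possible because each time has 1 library. Every share and count kept its value within 1.5 times or its interval when doublets were kept, when the pair was clustered alone and, for counts, when the cell with the most UMIs of each gene was left out. With at most 10% mitochondrial UMIs, 30 of 577 used genes were higher in cones and 22 lower. In bipolar cells 30 of 1091 were higher and 38 lower. In amacrine cells 101 of 5870 were lower, and the log2 ratio of the rod share was -0.12. Vbp1 in cones turned to -0.10, Enc1 in amacrine cells to 1.09 and Gfap in Müller glia to 0.0066. With at most 40%, where the added barcodes were placed by nearest cluster mean, 201 of 3797 used genes were higher in cones. In bipolar cells 64 of 5311 were higher and 26 lower, and the rod and amacrine shares gave -0.61 and 0.54. With at least 1000 UMIs per cell the shares gave 1.24 for cones, 0.35 for bipolar cells, 0.31 for amacrine cells, -0.77 for Müller glia, 1.23 for microglia and 0.72 for endothelial cells. Finer clustering (resolution 2.0) gave 362 of 5887 genes higher in bipolar cells, as did counting the Pcp2-led cluster among them. TMM scaling gave 69 of 3440 lower in microglia. TMM moved ratios by 0.12 in microglia and -0.09 in rods and by less elsewhere. Thinning to 1000 UMIs left out 4418 and 1484 rods. It gave 345 of 5984 used genes higher in rods and 78 of 2859 in bipolar cells. In cones 26 were higher and 24 lower of 854, in Müller glia 68 and 65 of 2379, and in microglia 57 and 15 of 688. Subtracting free RNA gave 125 of 1278 lower in cones and 203 of 5319 in bipolar cells. A minimum of 5 CPM, by which more genes entered, gave 575 higher and 126 lower of 8528 in rods. It gave 242 and 133 of 6716 in bipolar cells and 272 and 132 of 8348 in amacrine cells. Apoe in cones turned to -1.76 with doublets kept and to -0.48 with free RNA subtracted. Microglia without the Ccl4-high cluster, chosen after seeing the data, had 54 genes higher, and the heat shock median (-0.039), the glucocorticoid target median (-0.12), Gadd45b (-0.15), Rtp3 (-0.15, with 0 UMIs in both) and Hspa1b (-1.53) turned. Apart from those named, the cause was not tested. Single genes were followed only where named, fixed or apart in nearly every class, so other called list members were not covered. Over 147 such called pairs of gene and class and 1761 alternatives, 8 reversed, in 7 pairs, and 69 fell under 2-fold, in 41 pairs. Depth limits the cones, with 57 cells at 4 weeks, and microglia, with 77, most.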
